A study of Mus musculus with 4 samples.

Results

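Horizontal basal cells are the flat epithelial cells that lie directly on the basal lamina of the olfactory epithelium, the tissue of the nose that holds the olfactory sensory neurons (OSNs). They are known as its reserve stem cells: they mostly rest while the globose basal cells above them supply new neurons, and they divide after injury to rebuild the epithelium. They carry the keratins 5 and 14, are anchored to the lamina by hemidesmosomes, and depend on the transcription factor p63, encoded by Trp63, to stay in the resting basal state.

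The cells described here were chosen by UMI counts, where a UMI (unique molecular identifier) counts 1 captured mRNA molecule. A cell was kept if 500 or more genes were detected and mitochondrial genes gave no more than 10% of its UMIs. It was called a gated basal cell with at least 1 Krt5 UMI, at least 3 UMIs of Krt5 and Krt14 together, at most 2 Omp UMIs, at most 1 Gap43 UMI, and under 1% of its UMIs from Bpifa1 and Reg3g. This gate took 432 of 9110 cells kept. The P0 library gave 69 of them, P3 217, P7 74 and P21 72, which left 8678 other cells.

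Cells were freed with papain from the olfactory epithelium of mice of the outbred CD-1 strain on postnatal day 0 (P0), 3 (P3), 7 (P7) or 21 (P21). Each age is 1 library, and no treatment is named. The libraries are titled for OSNs and were made from sorted samples, and no source used here gives the sort gate, genotype, sex or number of mice. The 4 libraries held 182871, 852689, 273984 and 227818 UMIs in gated basal cells at P0, P3, P7 and P21. A gated basal cell had a median of 2383, 3909, 3439 and 2778 UMIs, against 3254, 5111, 4749 and 4568 UMIs in the other cells. The P0 and P3 libraries shared 68 cell barcodes, 5 of them on gated basal cells, and the other pairs of libraries shared 1 to 9. Leaving out all shared barcodes gave 1790 genes higher and 2745 lower in gated basal than in other cells, against 1814 and 2756 with them. With 1 library per age, age and library cannot be told apart, so differences between ages carry no p-value, and their intervals cover counting error only.

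The genes of the gate are given as a description, since they chose the cells. Krt5 was at 913, 998, 1113 and 1405 UMIs per 1000000 UMIs of the class (CPM) in gated basal cells at P0, P3, P7 and P21, against 2.0, 2.90, 4.89 and 1.36 CPM in the other cells. Krt14 was at 3368, 2310.3, 2879.7 and 2800.5 CPM in gated basal cells, against 32.9, 16.1, 22.3 and 7.55 CPM in the other cells. Omp, a marker of mature OSNs, was at 43.7, 24.6, 18.2 and 136 CPM in gated basal cells, against 894, 630.4, 1254 and 3956 CPM in the other cells. The gated basal value of Omp was highest in the P21 library, where the level in the other cells was also highest. The mature OSN list summed to 317, 172, 161 and 404 CPM in gated basal cells, against 5116, 3369.9, 5647 and 16650.3 CPM in the other cells.

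The number of cells near the cut was small. Cells with exactly 3 UMIs of Krt5 and Krt14, just inside the gate, numbered 3, 9, 5 and 3 in the P0, P3, P7 and P21 libraries. Cells with exactly 2, just outside it, numbered 5, 11, 2 and 3. Trp63 was detected in 1, 4, 3 and 3 of those just inside and in 0, 6, 2 and 3 of those just outside.

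The remaining markers of this cell type, which the gate did not use, were high in the gated cells. Trp63, the p63 gene, was at 252, 408, 464 and 891 CPM in gated basal cells at P0, P3, P7 and P21, against 4.33, 4.49, 5.37 and 4.68 CPM in the other cells. Krt17, a keratin of basal and injured epithelium, was at 1083, 1403, 2099 and 1528 CPM in gated basal cells, against 18.2, 12.6, 23.6 and 5.13 CPM in the other cells. Aqp3, a water and glycerol channel of basal epithelial cells, was at 1466, 2105, 2872 and 3455 CPM in gated basal cells, against 38.3, 26.2, 86.7 and 30.7 CPM in the other cells. For each of the 3 genes the lowest gated basal library stood above the highest library of the other cells. The log2 fold changes of gated basal over other cells were 6.57 ± 0.24 for Trp63, 6.73 ± 0.27 for Krt17 and 5.82 ± 0.26 for Aqp3 (SE, 4 libraries, edgeR's quasi-likelihood test with Benjamini-Hochberg adjustment, adjusted p = 1.56e-18, 1.31e-17 and 6.31e-17). The 3′ ends of Krt17 and Krt14 transcripts share a stretch of near-identical sequence, so how reads were divided between these genes is uncertain. The same holds, with pseudogenes or other genes, for Cbr2, Gstm1, Gstm2, Cyp2a5, Wnt4, Ajuba, Fgfr1, Ldha, Ldhb, Gpi1, Ube2c, Ccnb1, Tubb4b, Tyms, Nasp and Slbp, which are named below.

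Free RNA in the droplets gives some UMIs to cells that do not make a gene. With each cell thinned to 1500 UMIs, Trp63 was detected in 29.8%, 45.8%, 47.1% and 67.2% of gated basal cells at P0, P3, P7 and P21, against 0.593%, 0%, 0.548% and 0% of cells with at least 10 Omp UMIs. Before thinning those OSN-gated cells had a median of 4944, 7173, 5545 and 4742 UMIs. The share of Trp63-positive gated basal cells thus lay far above the share in a cell type that should lack the gene.

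**Figure D1:**
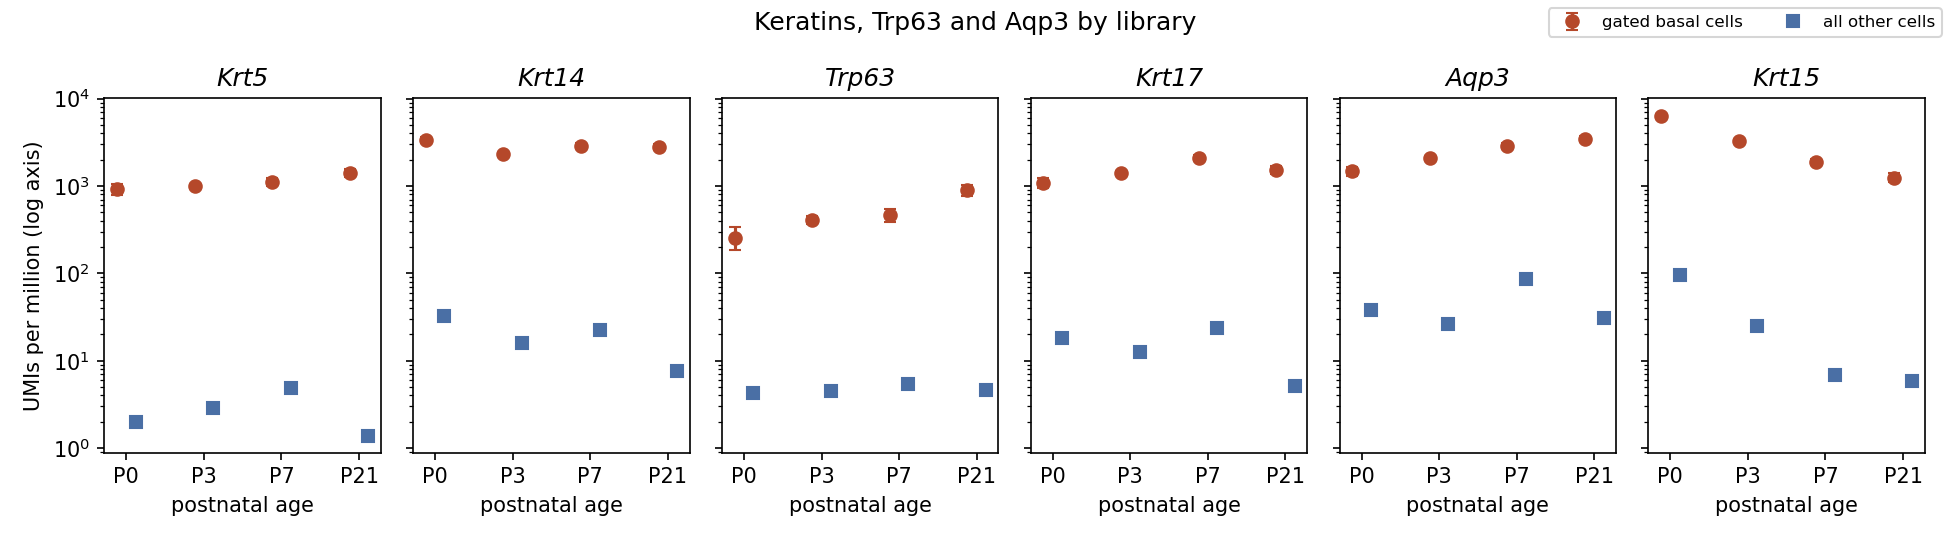
CPM (log axis) of Krt5, Krt14, Trp63, Krt17, Aqp3 and Krt15 in each library, in gated basal cells (circles, bars are 95% Poisson intervals of the count) and all other cells (squares). Krt5 and Krt14 were used to choose the cells. Trp63 reached 891 CPM in gated basal cells at P21, where Krt15 was at 1247 CPM.

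To show what sequence lies in front of genes of this cell type, 3 windows of 250 bases directly upstream of the annotated start are printed: the gate gene Krt5, the marker Aqp3, and Col17a1, whose product collagen XVII is a hemidesmosome component. They come from RefSeq's promoter table (GRCm38.p6), which had an entry for 3 of the 5 marker genes, and are written 5′ to 3′ on the gene's strand. Capitals mark every match to TATAAA on either strand. The Krt5 window is chr15:101712906-101713155, the Aqp3 window chr4:41098184-41098433 and the Col17a1 window chr19:47692043-47692292, each on the minus strand.
Krt5: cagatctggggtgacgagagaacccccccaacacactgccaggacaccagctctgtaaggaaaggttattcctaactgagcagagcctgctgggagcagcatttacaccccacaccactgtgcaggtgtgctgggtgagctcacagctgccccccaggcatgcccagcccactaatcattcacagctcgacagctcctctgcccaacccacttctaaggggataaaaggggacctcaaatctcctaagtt
Aqp3: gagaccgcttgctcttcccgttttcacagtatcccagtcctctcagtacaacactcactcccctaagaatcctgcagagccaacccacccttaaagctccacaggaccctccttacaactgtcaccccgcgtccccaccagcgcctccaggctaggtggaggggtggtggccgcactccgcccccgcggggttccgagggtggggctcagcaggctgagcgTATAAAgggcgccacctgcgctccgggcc
Col17a1: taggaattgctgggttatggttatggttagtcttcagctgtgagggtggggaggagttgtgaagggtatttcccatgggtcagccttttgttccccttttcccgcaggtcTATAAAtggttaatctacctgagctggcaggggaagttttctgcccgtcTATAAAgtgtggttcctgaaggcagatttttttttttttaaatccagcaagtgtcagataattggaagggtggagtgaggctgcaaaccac
TATAAA was found once in the Aqp3 window, in 2 places in the Col17a1 window and not in the Krt5 window, and 12.4% of all 32851 promoter windows of this length hold it. The AP-1 letters TGANTCA (6.75% of all windows) and the AP-2 letters GCCNNNGGC (13.7%), searched on both strands, were in none of the 3 windows. A match or its lack in these letters says nothing of whether a factor binds.

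Against all other cells, many adhesion genes, simple and basal keratins, detoxifying enzymes and secreted signals were higher in gated basal cells. Not all of these were particular to them: Krt8, Krt18 and some detoxifying enzymes were lower than in the supporting cells compared below. Of 12962 genes tested, 1814 were higher (14% of those tested) and 2756 lower (21.3%) at an adjusted p under 0.05 and at least 2-fold, and the median log2 fold change of all tested genes was -0.21. The gate keeps neurons out through Omp and Gap43, so lower neuronal genes follow at least in part from the choice of cells and nothing is read from them. Against only those other cells with at most 2 Omp and 1 Gap43 UMIs, 1133 of 9412 genes were higher (12%) and 1203 lower (12.8%).

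The genes with the largest fold changes included several with very few UMIs in the other cells. Krt15, a keratin of basal stem cells in stratified epithelia, was at 6272, 3283, 1887 and 1247 CPM in gated basal cells at P0, P3, P7 and P21, against 95.3, 25.1, 6.92 and 5.89 CPM in the other cells, a log2 fold change of 7.11 ± 0.28. Slc7a10, a transporter of small neutral amino acids, was at 16.4, 10.6, 21.9 and 26.3 CPM, against 0, 0.0591, 0.119 and 0 CPM in the other cells. Ces2b, a carboxylesterase, was at 5.47, 18.8, 32.8 and 57.1 CPM, against 0.111, 0.0591, 0.119 and 0.453 CPM in the other cells. Srd5a2, a steroid reductase, and Abca4, a lipid transporter, had log2 fold changes of 7.08 and 6.84. Slc7a10 rested on 24 UMIs in all gated basal cells, Duox1 on 14 and Wnt3a on 19, so their levels are imprecise even though the direction held in 4 of 4 libraries. Other genes of the 25 with the largest fold changes were the protease inhibitor Serpinb5, the oxidase Duox1, the defensin Defb1, the drug exporter Slc47a1, the neurotrophin Ntf5, the neuropeptide gene Qrfp, Anxa8, Ly6k, Fxyd3 and Trim29, with log2 fold changes between 6.32 for Trim29 and 6.66 for Defb1.

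Genes at the other end had no UMI in gated basal cells. Syt5 and Syt4, synaptotagmins of vesicle release, Tagln3, Slc17a6, the vesicular glutamate transporter of OSNs, Gm16579, Cidea, Erich3, Amer2, Gdap1 and Dkkl1 made up the 10 genes with the smallest fold changes. All 10 were at 0 UMIs in all 4 gated basal libraries. A floor of 3 counts over the group makes Syt5 at least 32.5-fold lower in gated basal cells and Syt4 at least 20.5-fold lower.

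Genes of adhesion to the basal lamina were nearly uniform. Of 22 listed hemidesmosome and lamina genes 21 passed the filter on low counts, 20 were higher in gated basal cells and none lower, and their median log2 fold change was 2.76, against -0.21 over all tested genes. Col17a1 was at 208, 213, 161 and 228 CPM in gated basal cells at P0, P3, P7 and P21, against 4.00, 3.01, 2.75 and 0.906 CPM in the other cells, a log2 fold change of 6.20 ± 0.27 (adjusted p = 4.03e-17, edgeR). Lamb3, a chain of laminin-332, was at 186, 216, 328 and 320.4 CPM, against 3.66, 1.60, 3.58 and 1.96 CPM in the other cells. Itgb4, the hemidesmosome integrin, was at 175, 115, 128 and 180.0 CPM, against 3.33, 2.07, 3.94 and 2.72 CPM in the other cells. Every gated basal library of these 3 genes stood above every library of the other cells. Fermt1, which activates integrins, and Bcam, a laminin receptor, had log2 fold changes of 6.62 ± 0.32 and 5.25 ± 0.22. Lamb1, at 1.01, was the tested member that did not pass. The filter keeps genes with enough counts in either class, so a member high only in gated basal cells had to differ to be tested, and this holds for each list below.

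Junction genes were split. Of 20 tested genes of desmosomes and cell junctions, 12 were higher and 4 lower in gated basal cells, with a median log2 fold change of 2.44. Perp, a desmosome protein that p63 is known to control, was at 651, 609, 649.7 and 667 CPM in gated basal cells, against 13.9, 11.4, 16.5 and 14.9 CPM in the other cells. Dsc3, a desmosomal cadherin, had a log2 fold change of 5.97 ± 0.43. Cldn3, a claudin of tight junctions, was at 21.9, 25.8, 25.5 and 17.6 CPM in gated basal cells at P0, P3, P7 and P21, against 421, 378, 455 and 376 CPM in the other cells, a log2 fold change of -4.10 ± 0.23 (adjusted p = 6.72e-15, edgeR). Ocln, Cldn7 and Epcam, also of the apical or lateral membrane, were lower by log2 fold changes of -2.72, -1.86 and -1.11. Cldn3 stood lower in every gated basal library than in any library of the other cells.

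All 8 keratins that passed the filter, of 14 listed, were higher, with a median log2 fold change of 4.63. Krt19 was at 826, 1060.2, 934 and 1005 CPM in gated basal cells, against 15.9, 8.98, 18.5 and 6.19 CPM in the other cells. Krt8 and Krt18, the keratins of simple epithelia, were higher too, with log2 fold changes of 1.91 and 2.32. Sfn, Lgals7, Krt4, Tgm1, Ly6d and Cstb, 6 of the 8 tested genes of a list on squamous differentiation, were higher, and Dmkn was lower. Sfn, a 14-3-3 protein of stratified epithelia, was at 733, 598, 467 and 426 CPM in gated basal cells, against 13.2, 6.86, 8.12 and 4.98 CPM in the other cells. The terminal genes of that list, among them Ivl and Sprr1a, had too few UMIs to be tested.

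**Figure D2:**
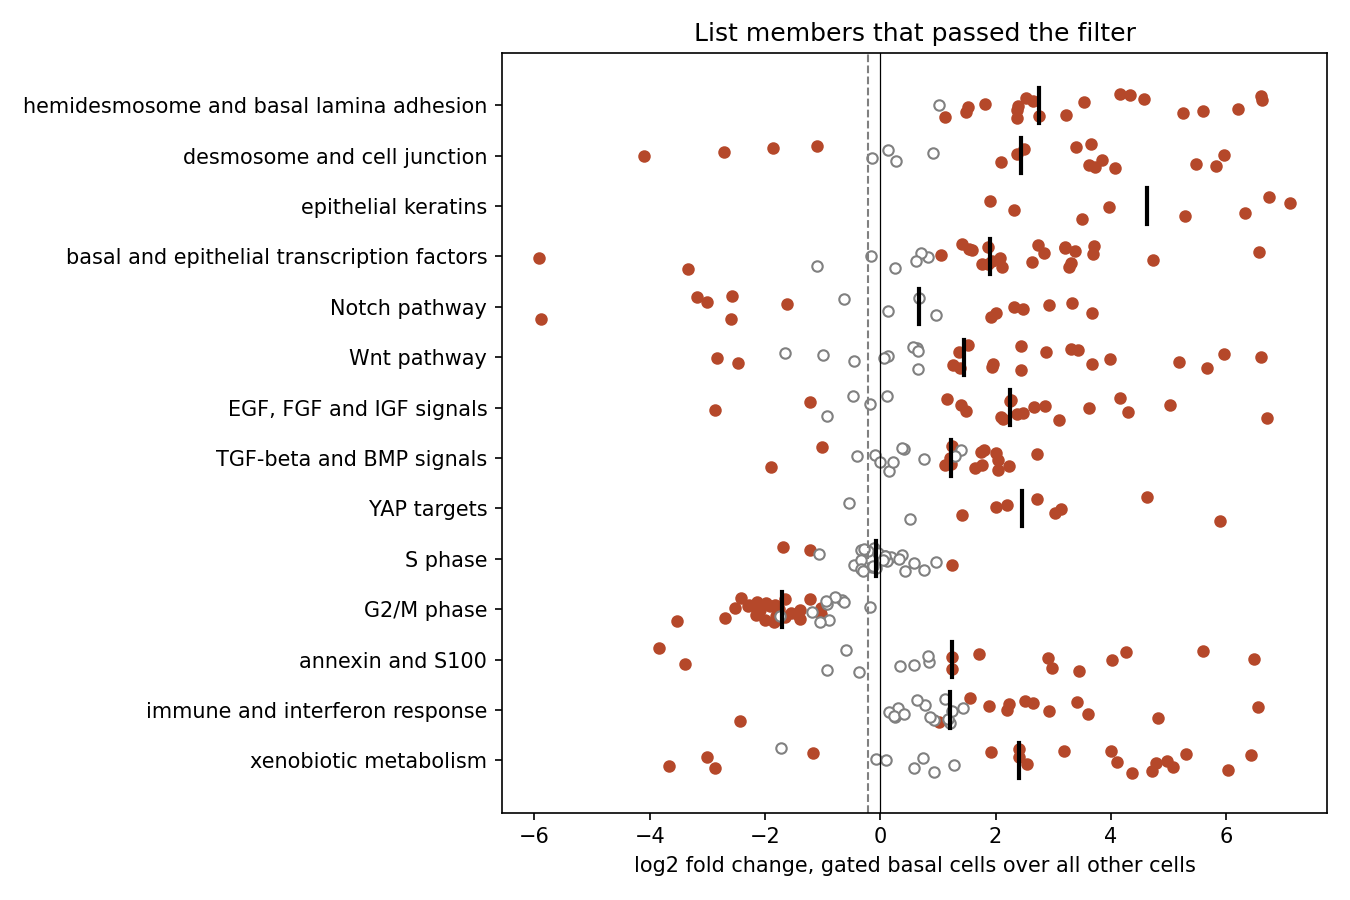
Log2 fold changes of gated basal over all other cells for each tested member of 14 gene lists; filled points were called, open points were not, short black bars are list medians, and the dashed line is the median of all 12962 tested genes. Hemidesmosome genes lay to the right with a median of 2.76, and G2/M genes to the left with a median of -1.70.

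Among transcription factors of basal and epithelial cells, 22 of 30 tested were higher and 2 lower, with a median log2 fold change of 1.90. Six3, a homeobox factor of the anterior head, was at 148, 158, 128 and 215 CPM in gated basal cells at P0, P3, P7 and P21, against 11.4, 13.8, 12.3 and 9.81 CPM in the other cells. Meis2 and Tfap2a had log2 fold changes of 3.38 ± 0.22 and 3.68 ± 0.56. Foxa1, a factor of endoderm-derived and airway epithelia, was at 65.6, 61.0, 43.8 and 8.78 CPM, against 3.77, 1.36, 1.07 and 1.06 CPM in the other cells. Its level in gated basal cells was lowest in the P21 library. Hopx was at 0, 1.17, 0 and 0 CPM in gated basal cells, against 12.1, 44.0, 75.2 and 13.7 CPM in the other cells, and Tfap2b was also lower, at -3.33.

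Notch genes went both ways. Of 17 tested, 7 were higher and 6 lower, and the median log2 fold change was 0.67. Hes1, the repressor that Notch signalling switches on, was at 432, 453, 427 and 474 CPM in gated basal cells, against 46.8, 55.1, 62.9 and 19 CPM in the other cells, a log2 fold change of 3.33 ± 0.22 (adjusted p = 2.4e-13, edgeR). The receptors Notch1 and Notch2, the ligands Dll1 and Jag2, Hey1 and the coactivator Maml2 were the other higher members. Mfng, which adds sugars to Notch receptors, was at 0, 5.86, 0 and 0 CPM, against 133, 258, 117 and 62.5 CPM in the other cells. Hes6, which counters Hes1, was lower at -2.58, as were Dll3, Heyl, Nrarp and Notch3.

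Secreted signals and their receptors were mostly higher than in all other cells. In the Wnt list 17 of 28 tested genes were higher and 2 lower, with a median log2 fold change of 1.46. Wnt4, a ligand, was at 180.5, 197, 237 and 303 CPM in gated basal cells at P0, P3, P7 and P21, against 5.44, 3.72, 5.73 and 2.72 CPM in the other cells. Wnt10a and Wnt3a had log2 fold changes of 5.96 ± 0.49 and 6.60 ± 0.73. Sfrp1, a secreted inhibitor, was at 787, 875, 1000.1 and 926 CPM, against 58.7, 92.8, 96.0 and 12.8 CPM in the other cells, while the inhibitors Sfrp2 and Wif1 were lower. Axin2, which Wnt signalling is known to induce, had a log2 fold change of -0.45 and Lgr5 one of -1.66, and neither passed. Against only the other cells with few Omp and Gap43 UMIs, 7 of 18 tested Wnt genes were higher and 1 lower. Their median there was 0.57, and 12% of all genes tested were higher in that comparison.

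In the list of EGF, FGF and IGF signals 17 of 23 tested genes were higher and 2 lower, with a median of 2.25. Fgfbp1, which releases FGFs from the matrix, was at 186, 88.0, 73.0 and 351 CPM in gated basal cells, against 2.44, 1.0, 1.07 and 1.06 CPM in the other cells. The receptors Egfr and Met and the ligand Fgf1 had log2 fold changes of 4.16 ± 0.41, 4.30 ± 0.42 and 5.02 ± 0.44. Igf1 and Igfbp7 were lower, at -2.87 and -1.22. For TGF-beta and BMP signals 13 of 25 tested genes were higher and 2, Id4 and Tgfbr1, lower, with a median of 1.23. Smad6 and Nbl1, both inhibitors of BMP signalling, had the largest log2 fold changes of that list, at 2.72 ± 0.50 and 2.23 ± 0.32. Of 10 tested targets of YAP, a factor that responds to stretch and wounding, 8 were higher and none lower. F3, tissue factor, was at 1049.9, 1253, 770.1 and 1023 CPM in gated basal cells, against 30.7, 14.2, 19.6 and 8.00 CPM in the other cells, and Ajuba had a log2 fold change of 4.63 ± 0.34. Against only the other cells with few Omp and Gap43 UMIs, 13 of 20 tested EGF, FGF and IGF genes were higher and 2 lower. The TGF-beta and BMP list there had 6 of 21 higher and 4 lower, with a median of 0.58.

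Detoxifying enzymes, which the olfactory epithelium uses against inhaled chemicals, were mostly higher. Of 26 tested, 15 were higher and 4 lower, and the median log2 fold change was 2.40. Cbr2, a carbonyl reductase, was at 4118, 5819, 5081 and 5267 CPM in gated basal cells at P0, P3, P7 and P21, against 155, 64.4, 283 and 81.2 CPM in the other cells. Adh7, an alcohol and retinol dehydrogenase, was at 219, 258, 186 and 180.0 CPM, against 3.33, 2.36, 2.51 and 1.51 CPM in the other cells. Aldh3a1 and Fmo2 had log2 fold changes of 6.04 ± 0.34 and 5.07 ± 0.26. The lower members were Cyp1a2 and Cyp2g1, which mark sustentacular cells, Cyp2a5, and Nqo1. Nqo1 turned round against the other cells with few Omp and Gap43 UMIs, with a log2 fold change of 1.72 in place of -3.01.

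Calcium-binding proteins and immune genes leaned the same way. In the annexin and S100 list 10 of 19 tested genes were higher and 2, S100a8 and S100a9 of neutrophils, lower, with a median of 1.24. In the immune and interferon list 12 of 27 tested genes were higher and 1, Ifit1, lower, with a median of 1.21. Ccl20, a chemokine for CCR6-bearing leukocytes, was at 235, 683, 584 and 751 CPM in gated basal cells, against 7.77, 5.20, 7.04 and 2.72 CPM in the other cells. Icam1, an adhesion molecule that inflammation induces, and Ifitm3, an antiviral membrane protein, had log2 fold changes of 4.82 ± 0.37 and 3.61 ± 0.23. Matrix genes were higher in 11 of 23 tested and lower in 3, led by Egfl6 and the anchoring fibril gene Col7a1, at 4.53 ± 0.38 and 4.21 ± 0.28. Against only the other cells with few Omp and Gap43 UMIs, 4 of 20 matrix genes were higher and 2 lower. Their median there was 0.12, and 12% of all genes tested were higher in that comparison.

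Mitotic genes were lower in gated basal cells than in all other cells, while most S phase genes did not pass the threshold. In the G2/M list 26 of 36 tested genes were lower and none higher, with a median log2 fold change of -1.70. Ube2c, which drives mitotic exit, was at 82.0, 46.9, 21.9 and 4.39 CPM in gated basal cells at P0, P3, P7 and P21, against 139, 396, 109 and 89.5 CPM in the other cells. Ccnb1, a mitotic cyclin, and Kif2c had log2 fold changes of -2.70 ± 0.33 and -3.52 ± 0.69. In the S phase list 1 of 27 genes, Gins2, was higher, 2, Cdc45 and Fen1, were lower, and the median was -0.08. Cdkn1a, the inhibitor p21, was lower at -3.33 ± 0.25. Of 13 tested genes of cell cycle exit 3, Txnip, Ccng1 and Gas1, were higher and 3 lower, with a median of 0.19. Over all genes tested 14% were higher and 21.3% lower. Against only the other cells with few Omp and Gap43 UMIs, 33 of 35 G2/M genes were lower, with a median of -2.49. In the S phase list 8 of 26 genes were lower there and none higher, with a median of -0.77. Of 13 genes of cell cycle exit 2 were higher there and 4 lower, with a median of -0.44.

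The calls in the remaining lists are set beside 14% higher and 21.3% lower of all genes tested. Of 15 tested retinoic acid genes 2 were higher and 3 lower, of 13 fetal and imprinted genes 2 higher and 1 lower, of 15 glycolytic genes 2 higher and 2 lower, and of 18 respiratory chain genes none higher and 1, Ndufa4, lower. Ldha was higher at 2.17 ± 0.18, and Ldhb lower at -2.68 ± 0.17, so the pair of lactate dehydrogenase subunits went opposite ways. Of 17 tested immediate-early and stress genes, which cell dissociation can induce, 6 were higher and 3 lower. Against only the other cells with few Omp and Gap43 UMIs, 2 of 13 were higher and 3 lower. Junb was at 306, 201, 234 and 268 CPM in gated basal cells, against 25.9, 13.9, 20.7 and 15.2 CPM in the other cells.

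Markers of 15 other cell types were checked in the same fit. The 16 tested markers of mature OSNs, immature OSNs and neuronal precursors were all lower, which follows at least in part from the choice of cells. Against only the other cells with few Omp and Gap43 UMIs, 1 of 5 mature OSN markers was lower. There 5 of 5 immature OSN and 5 of 5 precursor markers were lower, against 12.8% of all genes tested in that comparison. Of the 42 tested markers of the other types 28 were lower in gated basal cells, against 21.3% of all tested genes, and 5 were higher. The lower ones were 4 of 6 sustentacular, 3 of 4 microvillar, 2 of 4 myoepithelial, 4 of 6 stromal, 3 of 3 endothelial, 4 of 5 leukocyte, 3 of 5 ensheathing glia, 3 of 4 ciliated and the 1 erythroid marker. The 1 tested gland marker did not pass, and the Bpifa1/Reg3g secretory list had 1 of 2 lower. The 5 higher were Scgb1c1, Ermn, Ccdc153, Krt4 and Dcn, listed for secretory, sustentacular, ciliated, squamous and stromal cells. Scgb1c1, a secretoglobin, was at 2149, 3783, 5442 and 8213 CPM in gated basal cells at P0, P3, P7 and P21, against 239.5, 54.1, 287 and 596 CPM in the other cells. The sustentacular genes Cyp2g1 and Cyp1a2 were lower where Ermn was higher, and the stromal genes Col1a1 and Col3a1 were lower where Dcn was higher. Dcn had a log2 fold change of -0.23 when only gated basal cells with 0 or 1 Krt15 UMI were used.

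The 10 genes whose pattern over the 8 sums was most like that of Krt5 were Urah, Wnt4, Perp, Pdpn, Sema4a, Bcam, BC064078, Fermt1, Zfp467 and Mcee. Their Pearson correlations with Krt5 on log2(CPM + 10) over 8 sums were each 0.998 after rounding, and that of Krt14 was 0.993. Pdpn, podoplanin, is a surface glycoprotein of basal epithelia, and Urah is an enzyme of urate breakdown. The 8 points are 2 sums from each of 4 libraries and fall into 2 clusters, so the value describes the contrast between gated basal and other cells.

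Sustentacular cells are the supporting cells that span the epithelium. They were gated by at least 4 UMIs of Cyp2g1, Cyp1a2 and Ermn together, at most 2 Omp UMIs and at most 1 Gap43 UMI. Gated basal cells were left out of them, and Ermn was itself higher in gated basal than in all other cells. The P0, P7 and P21 libraries, with 40, 63 and 15 such sustentacular-gated cells, were used, since P3 had 9. Of 3479 genes tested, 293 were higher in gated basal cells (8.42%) and 270 lower (7.76%). In the hemidesmosome list 8 of 12 tested genes were higher and none lower, with Lamb3 at 5.26 ± 0.44 and Itgb4 at 4.02 ± 0.50 (log2 fold change, SE, edgeR's quasi-likelihood test with Benjamini-Hochberg adjustment, adjusted p = 8.19e-07 and 3.35e-05). Col17a1 had 134 UMIs in gated basal cells and 0 in sustentacular-gated cells of these libraries, at least 33.3-fold higher with a floor of 3 counts over the group. Trp63 had 376 UMIs in gated basal cells, against 2 in sustentacular-gated cells, a ratio of 140 (95% interval 38.5 to 1162). Krt8 and Krt18 ran the other way and were lower in gated basal cells, at -1.60 and -1.80. Cldn3 and Epcam were lower, at -4.68 and -1.67. Of 14 tested genes of desmosomes and cell junctions 5 were higher and 5 lower, with a median of -0.02. Of 16 tested transcription factors of basal and epithelial cells 4 were higher and 2 lower, with a median of 0.22. The detoxifying enzymes split 4 higher to 4 lower of 17 tested. Adh7 had 132 UMIs in gated basal cells and 0 in sustentacular-gated cells, at least 32.8-fold higher. Gsto1, a glutathione transferase, was higher at 4.19, Cyp2a5 lower at -6.94, and Cbr2, Gstm1 and Cyp2f2, at 0.28, -0.20 and -0.16, did not pass. Sox2, Pax6 and Hes1, at -0.01, -0.35 and 0.71, did not pass either, and Scgb1c1, at -0.91 with an adjusted p of 0.00775 by edgeR, missed the 2-fold limit. None of 8 tested G2/M genes and none of 10 tested S phase genes passed against sustentacular-gated cells, with medians of -0.47 and 0.17. Without the P7 library, which held most sustentacular-gated cells, 61 genes were higher and 69 lower, and without P21 419 were lower.

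Neuronal precursors, gated by at least 2 UMIs summed over a short set of lineage genes that includes Neurog1 and Neurod1, are the dividing neighbours of the horizontal basal cells. In 4 libraries with 366, 690, 233 and 79 such cells, 1503 of 7719 tested genes were higher in gated basal cells (19.5%) and 1308 lower (16.9%). The 18 tested hemidesmosome genes were all among the higher, with Itgb4 at 8.00 ± 0.32 (adjusted p = 5.51e-15, edgeR). Hes1 was higher at 6.25 ± 0.21, and Hes6, Dll3 and Mfng were lower at -4.10, -3.45 and -7.62. The 35 tested G2/M genes were lower in gated basal cells, with a median log2 fold change of -3.20, and 16 of 26 S phase genes were lower, with a median of -1.07. Cells with 1% or more of their UMIs from Bpifa1 and Reg3g numbered 8, 5, 4 and 2, under the 10 per library set for a fit, so they were not compared.

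Gated basal cells made up 2.56% of the cells kept in the P0 library (95% Clopper-Pearson interval 2.0% to 3.23%) and 6.74% in the P3 library (5.90% to 7.66%). Their share was 4.15% in the P7 library (3.27% to 5.18%) and 5.09% in the P21 library (4.01% to 6.37%). The intervals hold no spread between libraries, so they do not rank the ages. The sort can set these shares, and the gate asks for more UMIs than a shallow cell holds. With every cell thinned to 1500 UMIs before the gate, the shares were 1.5%, 4.39%, 2.86% and 3.80%.

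Cell cycle transcripts were counted per cell at a fixed depth. With each cell thinned to 1500 UMIs, at least 2 UMIs of the S phase list were present in 38.6%, 38.3%, 30.0% and 17.2% of gated basal cells of the P0, P3, P7 and P21 libraries. The same share in neuronal-precursor-gated cells was 49.0%, 69.0%, 46.6% and 58.4%. For the G2/M list without Tubb4b, a tubulin that OSNs also express, it was 10.5%, 12.6%, 8.57% and 0% in gated basal cells, against 50.1%, 71.4%, 50.2% and 50.6% in neuronal-precursor-gated cells. In OSN-gated cells, which do not divide, the S phase share was 9.79%, 12.1%, 9.04% and 12.1%. The P21 value was the lowest of the gated basal shares in both lists, but its S phase interval (8.90% to 28.7%) overlapped that of P7 (19.6% to 42.1%). The order also depended on the limit: with at least 1 UMI of the full G2/M list the shares were 36.8%, 46.3%, 31.4% and 42.2%, so P21 stood above P0 and P7. Thinning left out 12, 3, 4 and 8 shallower gated basal cells at P0, P3, P7 and P21, and unthinned the S phase shares were 49.3%, 61.8%, 54.1% and 38.9%.

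**Figure D3:**
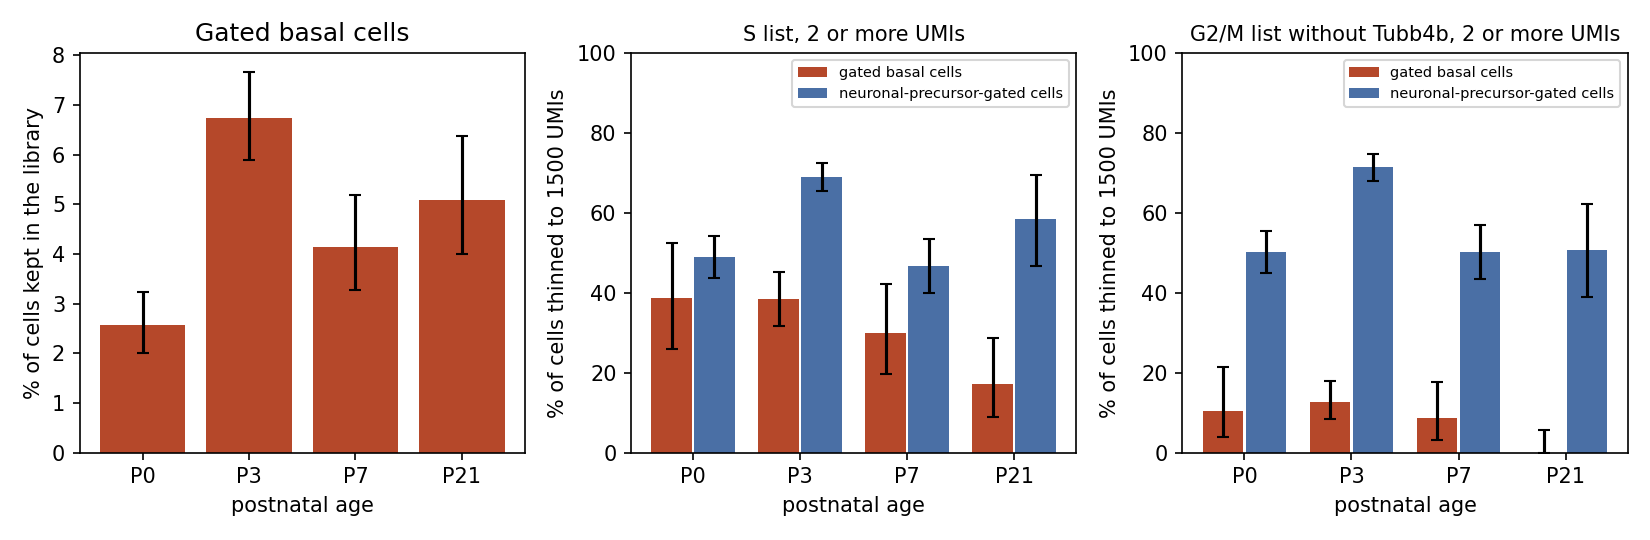
Left, gated basal cells as a percentage of the cells kept in each library; middle and right, percentage of cells, thinned to 1500 UMIs, with at least 2 UMIs of the S phase list or of the G2/M list without Tubb4b, in gated basal cells and neuronal-precursor-gated cells. Bars carry 95% Clopper-Pearson intervals; at P21 the right panel shows 0% of gated basal cells, against 50.6% of neuronal-precursor-gated cells.

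Summed over all UMIs, S phase list transcripts stood at 1230.4, 1486, 1533 and 483 CPM in gated basal cells at P0, P3, P7 and P21. G2/M list transcripts stood at 1225, 1120.0, 803 and 312 CPM. Top2a, which untangles DNA in dividing cells, had no UMI in the P21 gated basal cells, against 93.0 CPM at P0, which with a floor of 3 counts is at least 7.06-fold lower at P21. In the other cells the S phase list summed to 1086, 1872, 1019.5 and 760.2 CPM.

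Gated basal cells were not uniform, and Krt15 was spread unevenly among them. At least 5 Krt15 UMIs were found in 27 of 69 gated basal cells at P0 (39.1%, 95% interval 27.6% to 51.6%), 84 of 217 at P3 (38.7%, 32.2% to 45.5%), 16 of 74 at P7 (21.6%, 12.9% to 32.7%) and 8 of 72 at P21 (11.1%, 4.92% to 20.7%). Most of the rest had 0 or 1, namely 32, 104, 50 and 57 cells. The Krt15-high cells were deeper, with a median of 2776, 4549, 5061 and 5771 UMIs, against 2295, 3204, 3080 and 2509 UMIs in the cells with 0 or 1. This division was made after the values were seen, so what follows is a description with no test.

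Of 3404 genes with at least 60 UMIs in these cells, 25 were at least 2-fold higher in Krt15-high cells in 4 of 4 libraries, Krt15 itself among them, and 29 at least 2-fold lower, on the log2(CPM + 10) scale. Cyp2f2, a cytochrome P450 of airway club cells, was at 1458, 1748, 1249 and 2239 CPM in Krt15-high cells at P0, P3, P7 and P21, against 337, 96.2, 43.2 and 222 CPM in Krt15-low cells. Klf5, a factor of proliferating basal epithelia, was at 440.0, 398, 218 and 323 CPM, against 48.1, 59.4, 80.2 and 42.0 CPM in Krt15-low cells. Adh7, Abi3bp, S100a6, Serpinb5, Dcn, Wnt10a, Cldn7 and Anxa1 were also among the 25, and Foxa1 was higher in 4 of 4 libraries, at least 2-fold in 3. Some libraries held very few UMIs of these genes. Cldn7 at P21 rested on 1 UMI in Krt15-high and 1 in Krt15-low cells, and Wnt10a at P7 on 2 and 1. Their ratios in those libraries are imprecise. Scgb1c1 was at 214, 1272, 2753 and 1847 CPM in Krt15-high cells, against 4017, 5600.2, 6302 and 10392 CPM in Krt15-low cells. Nrcam, a neural adhesion molecule, was at 0, 7.60, 133 and 23.1 CPM, against 72.2, 181, 277 and 419.5 CPM in Krt15-low cells. Ccl20, Car12, Fbln2, Crabp2, Ermn and Ccdc153 were also among the 29 lower.

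Markers of the cell type differed among themselves across this division. Aqp3 had a median log2 ratio of 0.01 in Krt15-high over Krt15-low cells. Trp63 had -0.52, lower in 4 of 4 libraries, and Krt17 had -0.87, at least 2-fold lower in 2 of 4. Of the adhesion genes, Itgb4 had -0.05, Col17a1 -0.41 and the integrin Itga6 -1.06. Pax6, a factor of olfactory and eye fate, was at 12.6, 58.3, 109 and 46.2 CPM in Krt15-high cells, against 180.4, 187, 154 and 108 CPM in Krt15-low cells. Otx2 and Sox2, which also mark the olfactory placode, had median log2 ratios of -1.27 and -1.11 and were lower in 4 of 4 libraries.

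**Figure D4:**
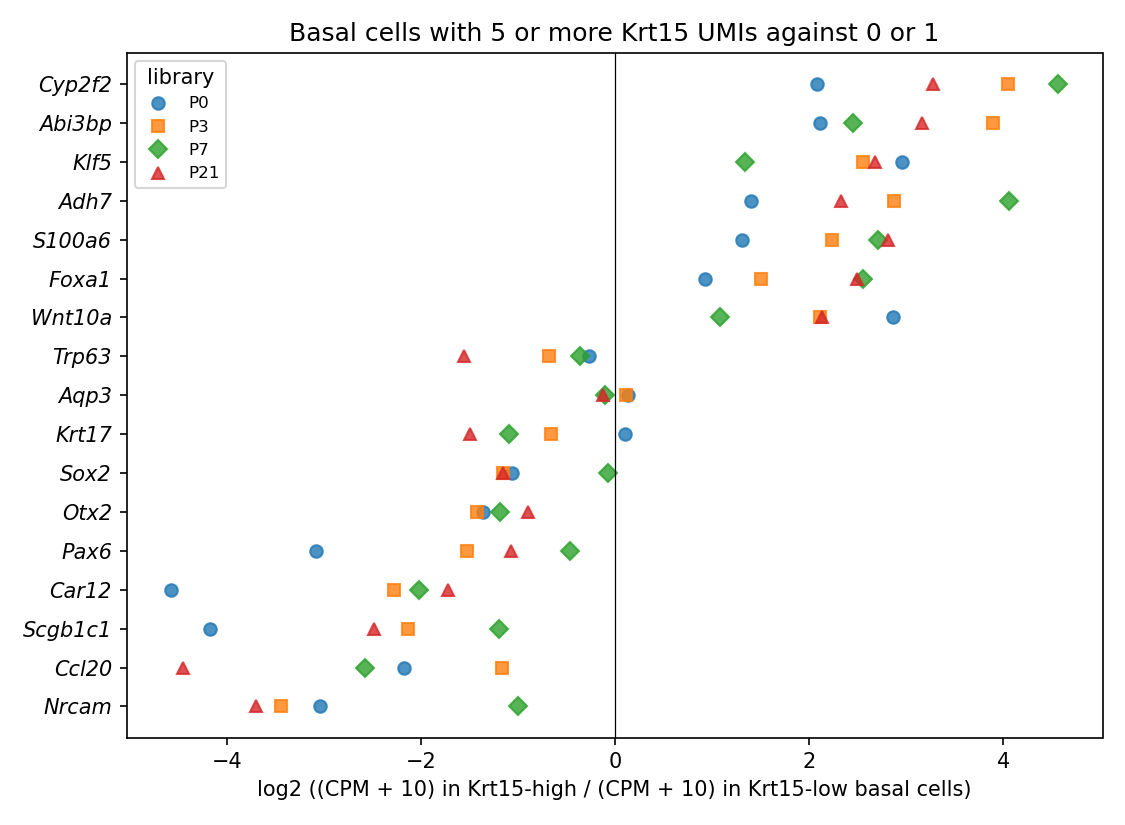
Log2 ratio of (CPM + 10) in gated basal cells with 5 or more Krt15 UMIs over those with 0 or 1, for 17 genes, with 1 symbol per library. Cyp2f2, Abi3bp and Klf5 lie to the right in 4 of 4 libraries, Scgb1c1, Ccl20 and Nrcam to the left, and Aqp3 lies near 0.

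One more group stood out in 1 library. Acta2, smooth muscle actin of myoepithelial cells and smooth muscle, was present at 5 or more UMIs in 11 of 217 gated basal cells at P3 and in none at the other ages. Most of these 11 cells had no UMI of the marker Aqp3, and the rest had 12 and 3. The one with most Acta2, at 55 UMIs, had 1 Krt17 UMI and none of Trp63. They passed the gate and count in the P3 share, and whether they are horizontal basal cells was not tested. The myoepithelial list summed to 16.4, 347, 10.9 and 4.39 CPM in gated basal cells at P0, P3, P7 and P21. Without those 11 cells 1803 genes were higher and 2756 lower than in the other cells, against 1814 and 2756 with them.

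Between P0 and P21 Trp63, Aqp3 and several detoxifying enzymes were higher at P21 in gated basal cells, and Krt15, S phase and imprinted fetal transcripts were lower. Of 2034 genes with at least 50 CPM and 20 UMIs at either age, 186 were at least 2-fold higher at P21 (9.14%) and 180 at least 2-fold lower (8.85%) on the log2(CPM + 10) scale, with a median of -0.12. Scaling by the median of ratios instead of the total moved the median to 0.00 and gave 216 higher and 133 lower, so a ratio just past 2-fold downward, such as those of Id3 and Nfkbia, lies within that shift of the limit. These are ratios of 1 library to 1 other, and in a sum fewer cells of a kind and less RNA per cell cannot be told apart.

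Trp63 was at 252, 408, 464 and 891 CPM at P0, P3, P7 and P21, a P21 to P0 ratio of 3.54 (95% interval 2.56 to 4.99). Aqp3 had a ratio of 2.36 (95% interval 2.05 to 2.72). In the other cells the log2 ratios of Trp63 and Aqp3 were 0.04 and -0.25, against 1.78 and 1.23 in gated basal cells. In gated basal cells with 0 or 1 Krt15 UMI they were 1.72 and 1.30, and in those with 5 or more, of which the P21 library held 8, 0.42 and 1.04. Of 11 measured hemidesmosome genes 1, Dst, was higher at P21, at 1.51, and none lower, and the list's median was 0.52.

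Several detoxifying and metabolic enzymes were higher at P21. Gstm1, a glutathione transferase, was at 1865, 4194, 6489 and 6553 CPM in gated basal cells at P0, P3, P7 and P21, and Gstm2 at 312, 471, 799 and 1273 CPM. Ephx1, microsomal epoxide hydrolase, was at 27.3, 111, 157 and 277 CPM, a ratio of 10.1 (95% interval 4.11 to 32.2), against 11.3 at P21 and 7.44 at P0 in the other cells. Aox2, an aldehyde oxidase, was at 27.3, 68.0, 172 and 421 CPM, a ratio of 15.4 (95% interval 6.38 to 48.5). G0s2, an inhibitor of fat breakdown, was at 16.4, 65.7, 120.4 and 237 CPM, a ratio of 14.4 (95% interval 4.69 to 72.2). Fads1, a fatty acid desaturase, was at 16.4, 48.1, 62.0 and 176 CPM, a ratio of 10.7 (95% interval 3.41 to 54.1). Each of these 6 genes was highest in the P21 library, though Gstm1 was nearly level between P7 and P21. Of 14 measured detoxifying genes 4 were at least 2-fold higher at P21 and none lower. The list's median log2 ratio was -0.04, so most members moved little, and its summed level was 10138, 14193, 15256 and 16926 CPM.

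Several other genes named by the size of their ratio were higher at P21, some on few P0 UMIs. Nrcam, an adhesion molecule, was at 38.3, 95, 241 and 364 CPM, a ratio of 9.52 (95% interval 4.42 to 24.4), with 7 UMIs in 4 cells at P0. Car12, a carbonic anhydrase, was at 115, 260.4, 558 and 759 CPM, a ratio of 6.61 (95% interval 4.19 to 11). Cxcl12, a chemokine for CXCR4-bearing cells, was at 21.9, 80.9, 109 and 176 CPM in gated basal cells, while in the other cells it stood at 4.98 at P21 and 38.4 at P0. Sema3d, a guidance cue, Cpe, a prohormone carboxypeptidase, Scrg1 and the sulphotransferase Hs3st6 had P21 to P0 ratios of 12.8 (95% interval 3.28 to 111), 8.26 (95% interval 3.81 to 21.3), 17.7 (95% interval 2.85 to 729) and 16.9 (95% interval 2.71 to 697). Gabarapl1, of autophagosomes, was at 5.47, 57.5, 58.4 and 87.8 CPM. Sema3d had 2 UMIs at P0 and Scrg1, Hs3st6 and Gabarapl1 had 1 each, which is why the intervals are wide. Notch1 and Hey1 were the 2 of 3 measured Notch genes that were at least 2-fold higher, at 1.26 and 1.32, and Fgfr1 and Igfbp2 were 2 of 6 in the EGF, FGF and IGF list. None of 4 measured Wnt genes passed 2-fold either way. Cyr61, a YAP target with 2 UMIs at P0, was at 10.9, 24.6, 58.4 and 109.7 CPM.

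Nrcam and Car12 were also lower in Krt15-high cells, whose share was smaller at P21. Within gated basal cells with 0 or 1 Krt15 UMI the log2 ratios of P21 to P0 were 2.39 for Nrcam, 1.86 for Car12 and 2.63 for Ephx1, and 164 of 1308 measured genes passed 2-fold upward and 120 downward. Scgb1c1 was at 2149, 3783, 5442 and 8213 CPM in gated basal cells, with a log2 ratio of 1.93, against 1.28 in the other cells and 1.37 in gated basal cells with 0 or 1 Krt15 UMI. The Bpifa1/Reg3g secretory list, which holds Scgb1c1, summed to 2614, 4219.6, 6103 and 8595 CPM in gated basal cells and 1067, 176, 698 and 704 CPM in the other cells, in the order of age. Scgb1c1 made up most of the gated basal sum at each age. The gate caps Bpifa1 and Reg3g, also in this list, in gated basal cells, so nothing is read from the contrast of the sums. How much RNA from other cells adds to the Scgb1c1 value was not tested.

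Several gene models changed in the same direction in the other cells. Gm10320 was at 0, 2.35, 0 and 180.0 CPM in gated basal cells, at least 11-fold higher at P21 with a floor of 3 counts at P0, and it stood at 205 at P21 and 4.11 at P0 in the other cells. Gm8730, Gm7658 and Sec61g had log2 ratios of 2.84, 2.71 and -2.05 in gated basal cells, against 2.62, 1.59 and -2.09 in the other cells. The 3′ ends of all 4 share near-identical sequence with other genes, Gm10320 with Sec61b, Gm8730 with Rplp0 and Gm7658 with Eif3m, so their counts are uncertain.

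**Figure D5:**
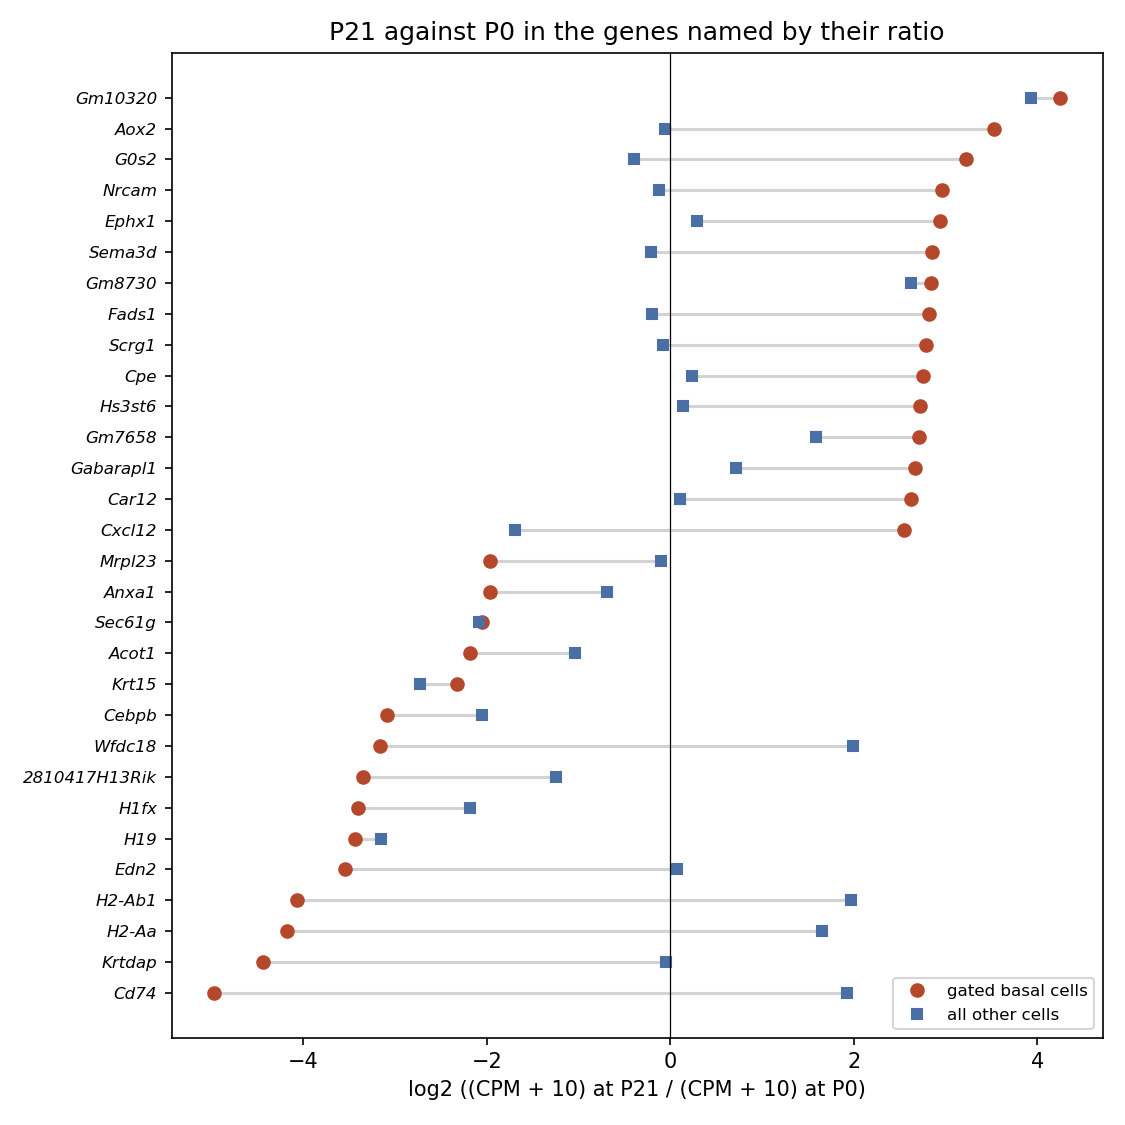
Log2 ratio of (CPM + 10) at P21 over P0 for the 30 genes named by rule, in gated basal cells (circles) and all other cells (squares). Gm10320, Gm8730, Sec61g and H19 have both symbols close together, and Cxcl12 and Wfdc18 have them on opposite sides of 0. For H19 the closeness rests on the added 10 CPM. Without it the P21 to P0 ratios were 0.0547 in gated basal cells and 0.00188 in the other cells.

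Krt15 was lower at each later age, at 6272, 3283, 1887 and 1247 CPM at P0, P3, P7 and P21, a ratio of 0.199 (95% interval 0.174 to 0.227). In the other cells its log2 ratio was -2.73, against -2.32 in gated basal cells, where 1 cell held 31.7% of the P21 UMIs. Within cells holding 5 or more Krt15 UMIs its log2 ratio was -1.27, and within cells with 0 or 1 UMI, where the count is bounded, -0.76. Anxa1, an annexin of epithelial inflammation control, was at 339, 129, 128 and 79.0 CPM, and Acot1, an acyl-CoA thioesterase whose 3′ end is near-identical to that of Acot2, at 115, 65.7, 58.4 and 17.6 CPM. Mrpl23, of the mitochondrial ribosome, was at 115, 73.9, 47.4 and 21.9 CPM, and its 3′ end also shares near-identical sequence with other genes. Cebpb, a factor of stress and inflammation, was at 224, 122, 102 and 17.6 CPM in gated basal cells, against 11.2 at P21 and 77.8 at P0 in the other cells.

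A pair of imprinted genes and the 3 S phase genes that were measured, of 27 listed, were lower at P21. H19, an imprinted noncoding RNA of fetal tissue, was at 241, 315, 142 and 13.2 CPM in gated basal cells, a ratio of 0.0547 (95% interval 0.0109 to 0.171), and in the other cells it stood at 0.151 at P21 and 80.1 at P0. Cdkn1c, an imprinted cell cycle inhibitor, was at 175, 323, 94.9 and 30.7 CPM. The 3 measured S phase genes, Tyms, Nasp and Slbp, were each at least 2-fold lower, at -1.78, -1.18 and -1.25, against -0.74, -0.59 and -0.42 in the other cells. H1fx, a linker histone, was at 142, 78.6, 69.3 and 4.39 CPM, and 2810417H13Rik, a PCNA-binding factor, at 137, 79.7, 83.9 and 4.39 CPM, with 48.0% of its P0 UMIs in 1 cell. Each had 1 UMI at P21, and their ratios were 0.0309 (95% interval 0.000753 to 0.188) and 0.0321 (95% interval 0.000782 to 0.196).

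The lower squamous and MHC class II genes rested on few P0 cells. Cd74, the MHC class II chaperone, was at 1132, 1.17, 10.9 and 26.3 CPM, but 1 cell held 99.0% of its P0 UMIs. The same was true of H2-Aa and H2-Ab1, where 1 cell held 100% and 98.2%. Without that P0 cell the log2 ratios of Cd74, H2-Aa and H2-Ab1 were 0.76, 0.53 and 0.26, in place of -4.97, -4.18 and -4.07. The leukocyte list as a whole summed to 1208, 9.38, 21.9 and 26.3 CPM in gated basal cells at P0, P3, P7 and P21, with Ptprc at 0 UMIs. Edn2, an endothelin, had 86.2% of its P0 UMIs in 1 cell, and Krtdap, a keratinocyte gene, 47.4%. Krtdap had no UMI at P21, which with a floor of 3 counts is at least 15.8-fold lower than its 208 CPM at P0. Lgals7 and Ly6d, also squamous, were at 432, 137, 65.7 and 65.8 and 126, 15.2, 3.65 and 43.9 CPM, and 1 cell held 34.2% and 47.8% of their P0 UMIs. Wfdc18, a secreted antiprotease-like gene with 41.4% of its P0 UMIs in 1 cell, was at 159, 28.1, 161 and 8.78 CPM in gated basal cells, while in the other cells it stood at 588 at P21 and 140.1 at P0.

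Respiratory chain genes stayed under 2-fold. None of the 18 measured passed 2-fold, and their median log2 ratio was -0.55, against -0.12 over all measured genes. Their summed level was 14611, 11717, 11139 and 10209.9 CPM at P0, P3, P7 and P21 in gated basal cells and 16668, 13920.1, 13359 and 13858 CPM in the other cells. Of 10 measured glycolytic genes 1, Gpi1, was at least 2-fold higher, and the list's median was 0.01. Among the remaining lists, 2 of 5 measured stress genes, Jun and Jund, were at least 2-fold lower at P21 and none higher, 3 of 9 immune genes, Ccl20, Tnfrsf1a and B2m, were higher and 1, Nfkbia, lower, and 2 of 7 matrix genes, Thbs1 and Agrn, were higher. Id1 and Id3, targets of BMP signalling, were the 2 of 4 measured genes of their list that were lower, at -1.17 and -1.01.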

How the data were processed

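Single-cell RNA-seq (10x Chromium 3′ v2) of 4 libraries was deposited as count matrices of UMIs per gene and cell. Per the submitters' processing notes, Cell Ranger 2.1.1, Seurat and the mm10 build were named. How the authors filtered cells was not given in the sources used here. Deposited counts were used without correction, with Python 3.11.15 (numpy 2.4.6, scipy 1.17.1, pandas 2.3.3, scanpy 1.11.5), R 4.3.3 and edgeR 4.0.16, with DESeq2 1.42.0 as an alternative. Near-identical 3′ transcript ends were searched with blastn 2.17.0, and figures were drawn with matplotlib 3.10.9. Of 9126 barcodes, 16 failed the filters of 500 genes and 10% mitochondrial UMIs. No doublets were removed; the highest Scrublet scores were left out as an alternative.

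UMIs were summed per library and class (gated basal cells, other cells). edgeR's quasi-likelihood test (glmQLFit) was fitted on TMM-scaled sums with library and class as terms, after filterByExpr and without gate and mitochondrial genes, and p-values were adjusted by Benjamini-Hochberg over all genes tested. A gene was called at an adjusted p under 0.05 and at least 2-fold. Library is a term because both sums come from the same library; every library is replicate 1 of its age. The p-values measure the spread between these libraries only. Ages were compared by CPM without a test, with exact conditional intervals. CPM was computed here per 1000000 UMIs of the class, with a pseudocount of 10 CPM on the log2 scale. Named genes were the top 25 and bottom 10 called genes by fold change that lay on the same side in all 4 libraries; for age the 10 highest and 10 lowest ratios among measured genes, then 5 each way that moved the same way at every step; 2 to 6 list members of largest size; and the 10 most like Krt5. Ribosomal protein, haemoglobin, immunoglobulin, odorant receptor and Y-linked genes and Xist were left out of the rankings. Other genes, the Krt15 division and the 11 Acta2 cells were chosen after their values were seen. Some genes that these rules or gates take in are not reported here. The cell gate, its members and the gene lists were chosen with earlier results of these data known.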

Additional observations from a re-analysis of the deposited data

Results flagged for a closer look

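In 6 of the genes named above or held in a list, the ratio of P21 to P0 was at least 2-fold in opposite directions in gated basal cells and in all other cells. The difference was not tested, since each age is 1 library. Igfbp2, which binds insulin-like growth factors, had a log2 ratio of 1.24 in gated basal cells and -1.08 in the other cells. It stood at 656, 771, 1139 and 1567 CPM in gated basal cells at P0, P3, P7 and P21, so the P21 library was the highest. Cxcl12, a chemokine, had 2.54 in gated basal cells and -1.69 in the other cells, and rested on 4 UMIs in gated basal cells at P0. Wfdc18 had -3.17 in gated basal cells and 1.99 in the other cells, with 2 UMIs in gated basal cells at P21 and 41.4% of the 29 P0 UMIs in 1 cell.

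The MHC class II genes Cd74, H2-Aa and H2-Ab1 had -4.97, -4.18 and -4.07 in gated basal cells, and 1.92, 1.65 and 1.97 in the other cells. At least 98.2% of the P0 UMIs of each lay in 1 gated basal cell, and without it none of the 3 was lower at P21. Over all 2034 measured genes 8 met the same condition, the other two being Csrp1 and Gja1.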

How the results depend on the processing

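Against all other cells, the counts of 1814 higher and 2756 lower genes stayed within 1.5 times under DESeq2 (1717 and 2460), no filter, the stricter gate, thinned cells, removal of Scrublet-marked cells and of each library (1637 to 1805 higher, 2526 to 2857 lower). Without library as a term (no replicate block) 1785 genes were higher and 2646 lower; the library pairs the sums by construction. Against the other cells with few Omp and Gap43 UMIs 1133 were higher and 1203 lower. There Stoml3 and Nqo1 turned to 0.042 and 1.72. Klf4 turned to -0.077 in thinned cells, and Dcn and Anxa1 to -0.23 and -0.10 in gated basal cells with 0 or 1 Krt15 UMI, a choice made after seeing the data.

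Leaving out each library gave 61 to 395 higher and 69 to 419 lower genes against sustentacular-gated cells, the lowest counts without P7, and 1171 to 1859 higher and 1061 to 1605 lower against neuronal-precursor-gated cells.

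Between P21 and P0, a pseudocount of 50 CPM gave 107 higher and 78 lower genes, a floor of 100 CPM and 40 UMIs 83 and 80, the stricter gate 105 lower, and cells with 5 or more Krt15 UMIs 38 and 77. P21 against P3 gave 106 higher, and against P7 68 higher. Against P3 and P7, H2-Ab1 was at 0.24 and 0.46, H2-Aa at 0.53 and 0.076 and Cd74 at 1.70 and 0.79. Without Scrublet-marked cells they were at 0.24, 0.54 and 0.74, without the P0 cell with most Cd74 at 0.26, 0.53 and 0.76. H2-Ab1 and Cd74 were at 1.32 and 2.49 in cells with 5 or more Krt15 UMIs. Gm8730 was at -0.29 against P7. Edn2 was at 0.090 against P3 and 0.68 in cells with 0 or 1 Krt15 UMI.

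The stricter gate gave basal shares of 1.34%, 4.72%, 3.08% and 3.82% at P0, P3, P7 and P21, and thinning before the gate 1.5%, 4.39%, 2.86% and 3.80%. With at least 2 UMIs the full G2/M list gave 14%, 19.2%, 12.9% and 6.25%, and without Tubb4b 12.6% at P3 and 0% at P21. For the full list a limit of 1 UMI gave 36.8%, 46.3%, 31.4% and 42.2%, which puts P21 above P0 and P7, and 3 UMIs 9.35% at P3 and 1.56% at P21. Thinning to 1000 UMIs gave 12% at P3 and to 2000 UMIs 29.8% at P0. For the S phase list 1 UMI gave 70.2%, 63.6%, 61.4% and 46.9%, and 3 UMIs 14%, 24.3%, 17.1% and 7.81%. Thinning to 1000 UMIs gave 25.8% at P0, 24.0% at P3 and 6.94% at P21, and to 2000 UMIs 30.2% at P21. The cause of these shifts was not tested. With 69 to 217 gated basal cells per library, depth limits genes under 50 CPM.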
